A study of Mus musculus with 11 samples.

Results

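Mouse embryos cultured with α-amanitin, a toxin that blocks RNA polymerase II, were compared by whether the egg had carried Rnf2. The 5 α-amanitin arrays of the 11 in the series were taken by their treatment label: 3 of control and 2 of mutant embryos, each array reading a pool of 40 late 2-cell embryos. Both genotypes came from eggs without Ring1. Control eggs still carried Rnf2 (maternal Ring1-Rnf+ in the labels), and mutant eggs lacked Rnf2 as well (maternal Ring1-Rnf2-). Sperm was wild type, so the alleles differ on the maternal side, and the strain was a mixture of 129/Sv and C57BL/6J. Superovulated egg donors were 5 to 10 weeks old and sperm donors 10 to 16 weeks old. After fertilization in vitro, embryos were moved into 24 µg/ml α-amanitin at 6 h and collected at 35 h. Embryos of several mice went into each pool, and neither the driver of the deletion nor the deleted exons are given in the sources used here. The other 6 arrays, 3 per genotype, are of untreated embryos and serve below as a second, separate measurement of the genotype difference. Values are deposited log2 signals, so a difference of 1 is a 2-fold change, and differences are given as mutant minus control ± limma's standard error.

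Ring1 and Rnf2 (also called Ring1b) are ubiquitin ligases and form the catalytic core of Polycomb repressive complex 1 (PRC1), which places ubiquitin on histone H2A and keeps developmental genes silent. The growing oocyte transcribes and stores the RNA on which the embryo runs until its own genome becomes active, which in the mouse happens mainly at the 2-cell stage. With RNA polymerase II blocked, what an embryo holds is largely what the egg handed over, minus what has been degraded since. On a pooled array, more RNA made in the oocyte and less RNA degraded in the embryo give the same reading, and fewer cells of a type cannot be told apart from less RNA per cell.

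The labels were checked first. Rnf2 read 7.31, 6.89 and 7.02 in the 3 treated control arrays and 5.18 and 5.24 in the 2 treated mutant arrays, a difference of -1.86 ± 0.13 (limma's adjusted p = 2.99e-05, exact 2-sided permutation p = 0.1, the smallest that 10 splits of 5 arrays allow). The groups did not overlap. Ring1, missing from all eggs, read between 4.42 and 4.62 and was not called (-0.11 ± 0.12, adjusted p = 0.75). Both mutant arrays, at 4.51 and 4.42, still lay below all controls, as in 13.7% of all genes. The sources used here do not say whether either probe set lies in the deleted part. Of 22 genes known for their burst of transcription at the 2-cell stage, 17 were lower with α-amanitin than without in control embryos and 16 in mutant embryos (of all genes 19.4% and 2.59% were), with medians of -1.90 and -1.48. Duxf3 went the other way in control embryos, where it was higher with α-amanitin by 1.08. The mean level of the 22 was 4.88 to 4.99 in treated control arrays and 4.87 to 5.05 in treated mutant arrays. Between the treated genotypes 2 were called higher and 2 lower in the mutant (9.09% each, against 6.93% and 4.05% of all genes). Oocyte markers were strong: 15 of 16 lay above the array's 75th percentile in every array. Of 26 cumulus and granulosa markers none did so in the treated control arrays and 1 did in the treated mutant arrays, and of 21 sperm markers 1 and 2 did. The cumulus marker was Ptgs2, the inducible prostaglandin synthase, which rose by 1.32 ± 0.16 and was the only called gene of that list.

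The genotype difference reached 2383 of 21699 genes (11.0%) at an adjusted p below 0.05. Higher in the mutant were 1504 genes (6.93%), among them 445 by at least 2-fold (2.05%), and 879 genes (4.05%) were lower, 113 of them by at least 2-fold (0.521%). Counted in probe sets, of which 34760 were tested, 1920 rose (5.52%) and 1224 fell (3.52%). The balance depended on scaling and array: 2227 rose and 2322 fell after quantile normalization, 1021 and 1388 without mutant replicate 2, and 2437 and 596 without mutant replicate 1, and 719 fell without control replicate 1. For all 2383 genes both mutant arrays lay on the same side of the control mean, which held for 65.6% of all genes. The call rests on these same 2 arrays and largely fixes this, so it is no separate check of their agreement. A stricter set was called in the same direction under 3 other scalings of the arrays and without either mutant array in turn: 671 genes rose (3.09%) and 331 fell (1.53%). Genes that rose had a median log2 level of 5.03 in the treated controls and genes that fell one of 6.87, while the median over all genes was 4.54 and the median difference over all genes 0.02.

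The 2 mutant arrays were not equally far from the controls. Over the 1504 rises the median difference from the control mean was 0.58 in mutant replicate 1 and 0.94 in replicate 2, and replicate 2 was the farther one in 88.2% of them. Over the 879 falls the medians were -0.81 and -0.53, and replicate 2 was the farther one in 8.53%. Mutant replicate 2 also had the highest 75th percentile of the 5 arrays, 5.21 against 5.00 in replicate 1 and 4.93 to 5.02 in the controls. The part of this shift in the results was not tested, and the values of both mutant arrays are given for the genes described in most detail.

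The 3 largest rises were in a spliceosome protein, a metal-binding protein and a retinoid-binding protein. Mt1, a metallothionein that binds zinc and copper, read 6.08, 6.04 and 5.92 in controls and 9.00 and 9.08 in mutants, a rise of 3.02 ± 0.11 (8.14-fold, limma's adjusted p = 1.12e-06). Snrpd3, a core Sm protein of the spliceosome, read 8.0, 7.73 and 7.64 against 10.8 and 10.9, a rise of 3.06 ± 0.15. Crabp2, which carries retinoic acid inside cells, read 5.00, 5.65 and 5.43 against 8.18 and 8.46, a rise of 2.96 ± 0.38. In these 3 genes the lowest mutant array stood more than 2 log2 units above the highest control array. Pcbd2, a cofactor-recycling dehydratase that also acts as a dimerization cofactor of HNF1, rose by 2.90 ± 0.21. Plac1, an X-linked gene best known from trophoblast, was flat at 4.40, 4.40 and 4.44 in controls and read 6.88 and 7.28 in mutants.

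Dppa3 (Stella), an egg protein that protects the maternal genome from loss of DNA methylation, read 7.90, 7.97 and 7.59 in treated controls and 10.2 and 10.4 in treated mutants. It rose by 2.46 ± 0.14 (adjusted p = 1.18e-05), and both of its probe sets were called higher. Whether these probe sets read Dppa3 itself or copies of it elsewhere in the genome was not tested. Magoh, a core protein of the exon junction complex, rose by 2.66 ± 0.14 from a control mean of 4.78. Tubb3, a beta-tubulin, rose by 2.47 ± 0.15, and Ddah1, which breaks down methylated arginine, by 2.47 ± 0.19. Another 4 of the 15 largest rises were respiratory-chain genes or a close copy of one: Uqcrh (2.63 ± 0.24), Ndufa1 (2.42 ± 0.18), Cox6c (2.37 ± 0.20) and Ndufa11b (2.27 ± 0.21), whose signal may include Ndufa11. Snrpf, another Sm protein (2.35 ± 0.14), and Psmb3, a proteasome core subunit (2.34 ± 0.15), complete the 15. All 15 belonged to the stricter set, their control means ran from 4.41 to 8.57, and the 2 mutant arrays differed by at most 0.40 in any of them.

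The largest falls were smaller than the largest rises and started from brighter genes, with control means from 6.45 to 10.9. After Rnf2 itself came Tnfaip8, a regulator of cell survival, at 8.46, 8.09 and 8.15 in controls and 5.92 and 6.53 in mutants (-2.01 ± 0.17, adjusted p = 9.52e-05). Cdo1, the cysteine dioxygenase, read 9.70, 9.66 and 9.44 against 7.33 and 7.89 (-1.98 ± 0.18). H2bc1, an H2B histone gene known from testis and oocytes, read 11.0, 10.8 and 10.9 against 9.37 and 9.00 (-1.73 ± 0.17). None of these groups overlapped. Prlr, the prolactin receptor, fell by 1.57 ± 0.17, and both of its probe sets were called lower.

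Epc2, a subunit of the NuA4 acetyltransferase complex, read 8.30, 7.98 and 8.0 against 6.47 and 6.81 (-1.46 ± 0.15). E2f4, a repressive cell cycle transcription factor, read 8.02, 7.82 and 7.82 against 6.04 and 6.62 (-1.56 ± 0.15). Dcun1d1, which promotes attachment of Nedd8 to cullins, fell by 1.46 ± 0.14. The zinc finger genes Zfp932 (-1.76 ± 0.29) and Zfp706 (-1.30 ± 0.21), Mzt1, a part of the gamma-tubulin ring complex (-1.25 ± 0.22), Wasf2, an activator of actin branching (-1.36 ± 0.13), Adm2, a peptide hormone (-1.49 ± 0.17), and Scoc (-1.57 ± 0.25) followed. Scoc and the pseudogene Vmn2r-ps105 (-1.25 ± 0.12) were called in 1 of 2 probe sets each. All 15 falls belonged to the stricter set, and mutant replicate 1 was the farther array in 13 of them.

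**Figure D1:**
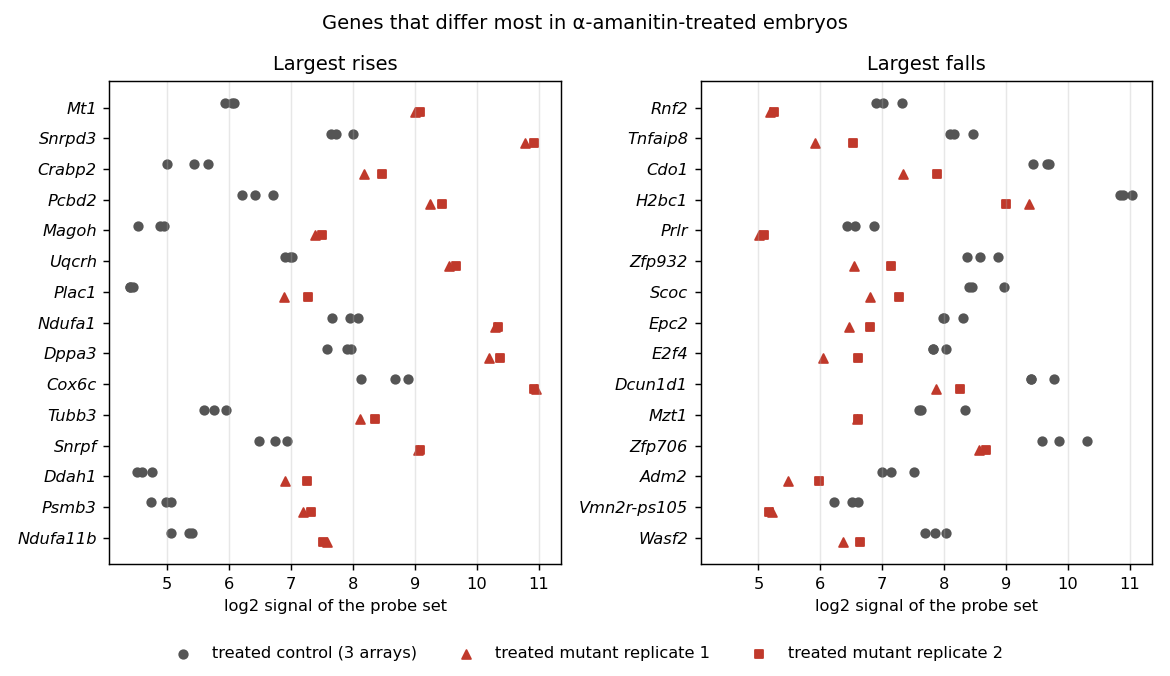
Log2 signal (horizontal axes) of the 15 largest rises and the 15 largest falls in α-amanitin-treated embryos, with 1 grey circle per control array and a red triangle and square for mutant replicates 1 and 2. Control and mutant arrays do not overlap for any of the 30 genes, the naming rule requiring it (19.6% of all genes were separated upward and 13.7% downward), and the rises reach 3.06 while the falls reach -2.01.

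Metallothionein genes lie side by side on chromosome 8 in mouse, and Mt1 and Mt2 share a metal-responsive transcription factor, Mtf1. Mt4, known from stratified epithelia, rose along with Mt1, from 6.41, 6.23 and 6.01 to 8.28 and 8.57 (2.21 ± 0.21, adjusted p = 1.43e-04). Mt2, the close partner of Mt1, read 5.62, 5.14 and 5.19 in controls and 5.26 and 5.82 in mutants, and its difference was 0.22 ± 0.18 (adjusted p = 0.63). Its groups overlapped. Mt3, a brain form, differed by -0.16 ± 0.16 (adjusted p = 0.72), and Mtf1 fell by 0.48 ± 0.12 (adjusted p = 0.036), a call lost without control replicate 1 or 3 or mutant replicate 1 (adjusted p from 0.060 to 0.23). Without α-amanitin the order was another one: Mt1 was higher in the mutant by 0.59 ± 0.10 and Mt4 by 2.20 ± 0.18, while Mt2 was lower by 1.36 ± 0.16.

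The RefSeq promoter windows of the pair that rose and of Mt2 are shown because the genes neighbour each other yet did not move together. Each runs from 250 bases before to 50 bases after the start, and capitals mark TGCACNC or TGCGCNC on either strand, the core of the metal response element.
Mt1, GRCm38.p6 chr8:94178839-94179138, plus strand: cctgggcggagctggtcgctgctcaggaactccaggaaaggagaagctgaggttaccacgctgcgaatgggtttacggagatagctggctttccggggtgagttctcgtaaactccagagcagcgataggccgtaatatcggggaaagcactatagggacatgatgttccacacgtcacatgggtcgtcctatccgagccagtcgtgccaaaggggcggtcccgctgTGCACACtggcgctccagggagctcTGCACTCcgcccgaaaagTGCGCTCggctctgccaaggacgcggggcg
Mt2, GRCm38.p6 chr8:94172368-94172667, plus strand: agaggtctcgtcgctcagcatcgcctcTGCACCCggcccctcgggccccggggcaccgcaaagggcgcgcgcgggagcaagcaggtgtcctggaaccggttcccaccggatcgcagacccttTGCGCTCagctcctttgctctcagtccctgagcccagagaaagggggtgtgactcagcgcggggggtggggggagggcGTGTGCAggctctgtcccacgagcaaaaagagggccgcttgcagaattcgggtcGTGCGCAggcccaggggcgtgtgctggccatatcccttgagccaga
Mt4, GRCm38.p6 chr8:94136954-94137253, plus strand: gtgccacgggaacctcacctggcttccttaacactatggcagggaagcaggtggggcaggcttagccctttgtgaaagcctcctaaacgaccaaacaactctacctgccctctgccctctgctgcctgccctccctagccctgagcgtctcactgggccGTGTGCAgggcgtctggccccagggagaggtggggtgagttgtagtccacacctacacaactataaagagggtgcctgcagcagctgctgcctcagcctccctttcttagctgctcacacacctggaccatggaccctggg
The core is found 3 times in the Mt1 window, 4 times in that of Mt2 and 1 time in that of Mt4. At least 1 copy occurs in 25.7% of all 32851 RefSeq promoter windows, and at least 2 copies in 7.11%. Mt2, which was not called, holds the most matches of these 3 windows, but the counts depend on the RefSeq start used. Whether they bear on the differences was not tested.

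Energy-producing genes of the mitochondrial inner membrane were called in 1 direction. Of 73 measured respiratory-chain genes, 35 rose and none fell (47.9%, against 6.93% of all genes), and the list's median was 0.50, against 0.02 over all genes. Complex IV, cytochrome oxidase, had 7 of 10 genes higher with a median of 1.31. Complex III had 5 of 9 (median 0.98), complex II 2 of 4, ATP synthase 6 of 13 (median 0.34) and complex I, the NADH dehydrogenase, 14 of 36 (median 0.44). Cox6b1, which helps the oxidase to form dimers, read 7.94, 7.77 and 7.47 in controls and 9.74 and 9.80 in mutants (2.04 ± 0.17). Ndufa11 rose by 2.23 ± 0.18. In the mitochondrial ribosome 15 of 75 genes rose (20%) and none fell (median 0.16), led by Mrps33 (1.62 ± 0.17) and Mrps12 (1.30 ± 0.13). Of the mitochondrial import genes 5 of 22 rose (22.7%) and none fell, including Tomm7, a small subunit of the outer-membrane pore (1.43 ± 0.21), and Pam16 of the import motor (1.21 ± 0.18). The respiratory-chain, mitochondrial ribosome and import medians were above 0 in both mutant arrays and under each of 3 other scalings. The rises numbered 23, 5 and 3 without mutant replicate 2, without control replicate 3 the mitochondrial ribosome had 9 and the import list 3, and 1 respiratory-chain gene fell after quantile normalization and after cyclic loess.

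Genes of protein turnover rose in the proteasome, the enzyme that degrades ubiquitin-tagged proteins. Of 49 proteasome genes 23 rose (46.9%) and 2 fell (4.08%), against 6.93% and 4.05% of all genes, and the list's median was 0.55. The barrel-shaped core had 5 of 7 alpha subunits and 5 of 10 beta subunits higher, and the cap 3 of 6 ATPases and 7 of 14 other subunits. Psmb7, a catalytic beta subunit, read 5.35, 5.72 and 5.86 in controls and 7.18 and 8.27 in mutants (2.08 ± 0.29), and Psmb6, another one, rose by 1.94 ± 0.18. Psma7, an alpha subunit, rose by 1.91 ± 0.23, with mutant arrays 1.42 and 2.40 above the control mean. Among 9 activator and assembly genes 1 rose and 2 fell, the falls being Psme3 (-0.57) and Psme4 (-0.77), which code for caps that work without the ATPases. Ubiquitin-conjugating E2 enzymes showed 2 rises and 4 falls among 32 genes (6.25% and 12.5%), Ube2g1 the largest fall at -0.85 ± 0.13. Leaving out mutant replicate 2 left 14 rises in the proteasome and none among E2 enzymes, which also had none without any 1 control array, and leaving out mutant replicate 1 left 1 fall in each of both lists. The E2 falls numbered 2 without control replicate 1 or 2.

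Genes of cell division were called higher more often than lower. Of 51 spindle and mitosis genes 26 rose (51.0%) and 3 fell (5.88%), against 6.93% and 4.05% of all genes, with a median of 0.53. Pttg1, the securin, an inhibitor of sister chromatid separation, read 7.36, 6.98 and 6.79 in controls and 9.20 and 9.32 in mutants (2.22 ± 0.16, adjusted p = 3.83e-05). Aurka, a spindle-pole kinase, read 5.47, 5.31 and 5.51 against 7.05 and 7.94 (2.06 ± 0.21). Cyclin B1 (Ccnb1) rose by 1.63 ± 0.14, and all 3 of its probe sets were called higher. Cks2, a partner of the cyclin-dependent kinases, rose by 1.84 ± 0.14 in its brightest probe set, and 3 of 4 were called higher. Kinesins Kif20a (1.45 ± 0.15), Kif2c and Kif22 rose too, while Kif18a (-0.66), Ect2 (-0.75) and Nek7 (-0.88) fell. The list had 17 rises without mutant replicate 2, and without mutant replicate 1 or control replicate 1 it had 1 fall.

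The anaphase-promoting complex, which marks securin and cyclin B for destruction, had 8 of 19 genes higher (42.1%, against 6.93% of all genes) and none lower. Anapc13 led it with 6.51, 6.68 and 6.14 against 8.81 and 8.51 (2.22 ± 0.22). Its activator Cdc20 rose by 1.32 ± 0.17 and its inhibitor Fbxo5 (Emi1) by 1.32 ± 0.21. DNA replication genes gave 18 rises and 3 falls among 48 (37.5% and 6.25%, median 0.40), where 4.05% of all genes fell. Pcna, the sliding clamp, rose by 1.62 ± 0.18 in 1 of 2 probe sets, and 5 of 7 genes named Mcm rose, with Mcm10 at 1.56 ± 0.23 and Mcm7 at 1.41 ± 0.16. The falls were Orc2 (-1.01), Orc5 (-0.78), parts of the origin recognition complex, and Dbf4 (-0.68), the activator of the Cdc7 kinase. The rises without mutant replicate 2 numbered 3 in the anaphase-promoting complex, with 2 falls, and 8 among replication genes. Without control replicate 3 they numbered 4 and 11, and without control replicate 1 the anaphase-promoting complex had 5.

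RNA-processing and translation genes were also called mostly upward. Among 34 Sm, LSm and snRNP genes 14 rose (41.2%) and 1 fell (2.94%), against 6.93% and 4.05% of all genes (median 0.41), with 5 of 8 Sm genes higher. Snrpe read 9.14, 8.78 and 8.46 in controls and 10.4 and 10.6 in mutants (1.69 ± 0.19), and Lsm10, part of the histone pre-mRNA processing snRNP, fell by 1.16. Splicing factors outside these particles gave 13 rises and 3 falls among 59 (22% and 5.08%), Prpf6 leading with 1.74 ± 0.23. Cytosolic ribosomal protein genes gave 21 rises (30.9%) and no fall among 68 (median 0.47), split into 8 of 29 of the small and 13 of 39 of the large subunit. Rplp1, of the ribosomal stalk, read 7.71, 7.60 and 7.23 against 10.2 and 9.55 (2.35 ± 0.19), and it was 1 of the genes in which mutant replicate 1 was the higher array. Ribosomal protein genes have many processed copies in the genome, and signal from these cannot be told apart here. In the absence of mutant replicate 2, 7 Sm, LSm and snRNP genes rose and 1 ribosomal protein gene fell, and in that of replicate 1, 22 splicing factors rose and 1 fell, as 1 did without control replicate 1. After cyclic loess 32 ribosomal protein genes and 21 splicing factors rose.

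Ribosome assembly factors gave 16 rises (23.2%, against 6.93% of all genes) and 1 fall (1.45%, against 4.05%) among 69, with Nop56, a box C/D snoRNP core protein, at 1.91 ± 0.25 and nucleophosmin (Npm1) at 1.55 ± 0.16. Of 52 translation factors 13 rose (25.0%) and 5 fell (9.62%). The elongation factor subunit Eef1b2 rose by 1.81 ± 0.16 and the helicase Eif4a1 by 1.36 ± 0.15, whereas Etf1, the release factor that recognizes stop codons, fell by 0.82 and Eif5 by 0.76. Among 39 chaperones 10 rose (25.6%) and 3 fell (7.69%), 5 of 8 subunits of the CCT chaperonin among the rises. Hspb1, a small heat shock protein, read 6.13, 5.76 and 5.84 against 8.05 and 8.39 (2.31 ± 0.21). Of 31 antioxidant genes 11 rose (35.5%) and 1 fell (3.23%), with superoxide dismutase Sod1 at 7.44, 7.12 and 7.61 against 8.97 and 9.19 (1.69 ± 0.15). The assembly factors had 30 rises without mutant replicate 1 and 7 without replicate 2, and their fall was not called without mutant replicate 1 or control replicate 1 or 2. Translation factors and chaperones had 6 rises each without mutant replicate 2 and 1 fall each without replicate 1, and translation factors had 2 falls without control replicate 1 and 3 without control replicate 3. A second antioxidant gene fell without mutant replicate 2.

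**Figure D2:**
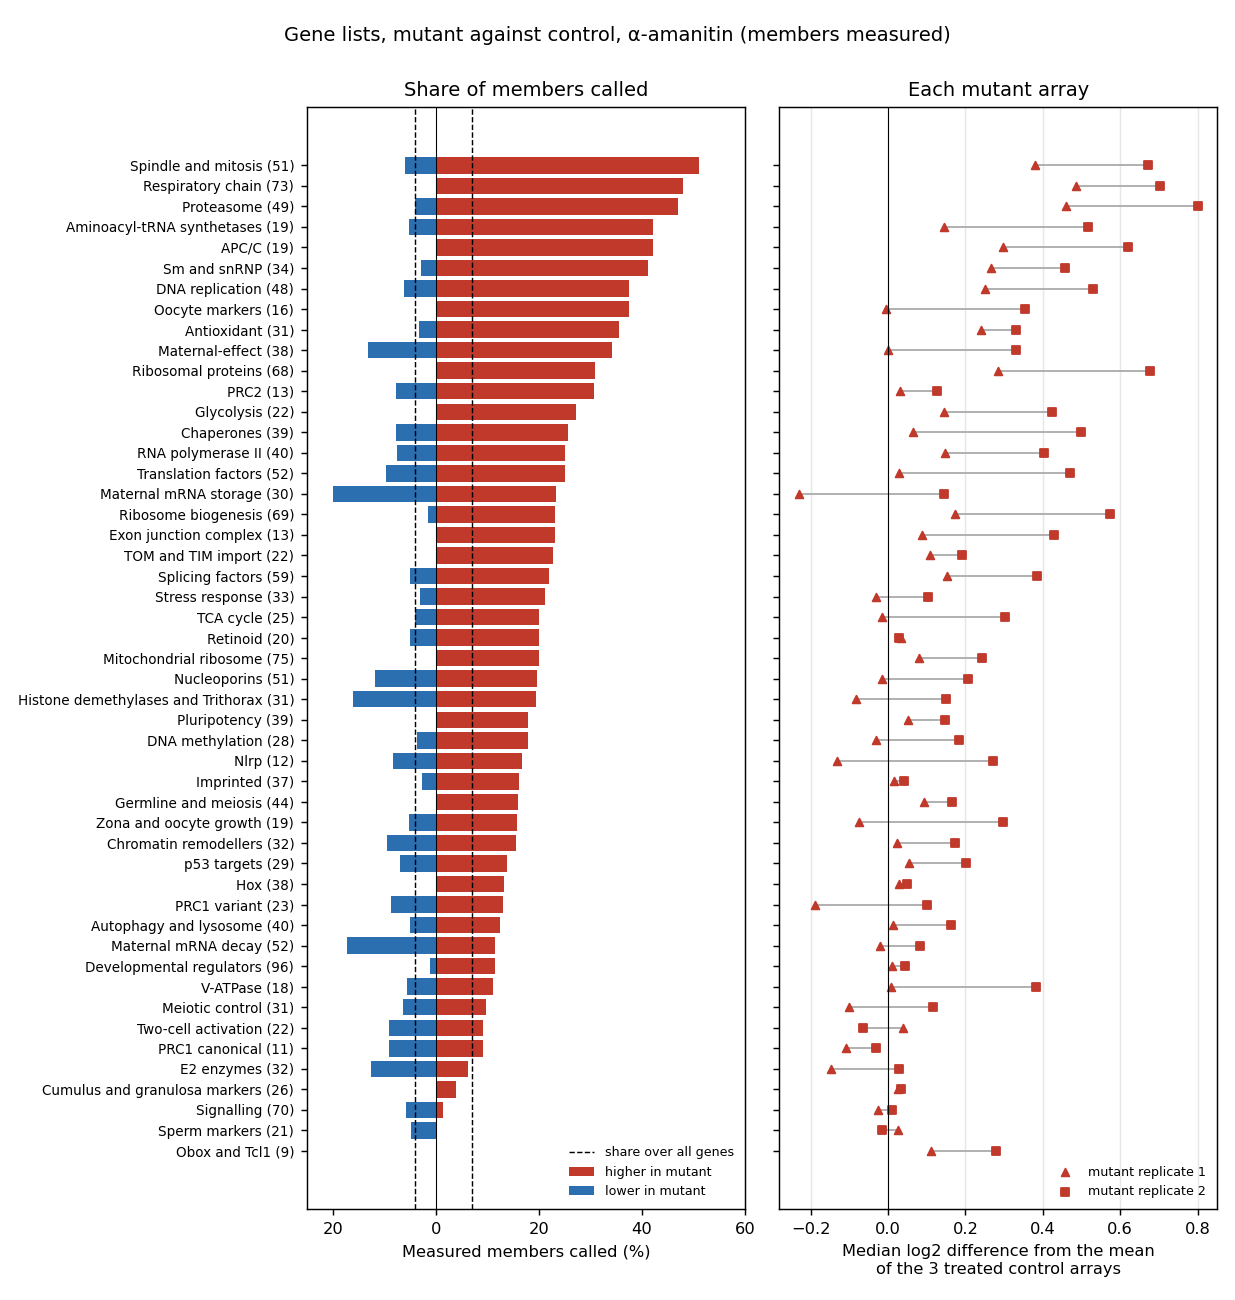
Left, share of the measured members of each gene list called higher (red, to the right) or lower (blue, to the left) in treated mutant embryos, in percent, with dashed lines at the shares over all genes (6.93% and 4.05%). Right, each list's median log2 difference from the treated control mean in mutant replicate 1 (triangle) and replicate 2 (square): the medians of spindle, respiratory-chain and proteasome genes lie above 0 in both arrays (0.38, 0.49 and 0.46 in replicate 1, 0.67, 0.70 and 0.80 in replicate 2), and lists of at least 9 measured genes are shown with that number in parentheses.

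Machinery that stores and removes egg messenger RNA was divided. Among 30 storage and translational-control genes 7 rose (23.3%) and 6 fell (20%), against 6.93% and 4.05% of all genes. Their median was -0.23 in mutant replicate 1 and 0.15 in replicate 2. Ybx1, a Y-box protein that packages messenger RNA, read 9.80, 9.37 and 9.62 in controls and 8.02 and 8.80 in mutants (-1.18 ± 0.20), and Ybx3 fell by 1.17 ± 0.15. Zar1l, by contrast, read 5.43, 5.21 and 5.14 against 6.61 and 7.69 (1.89 ± 0.28), and its relative Zar1, an RNA-binding protein that stores egg transcripts, rose by 0.85 ± 0.13 in 1 of 2 probe sets. Pabpc1l, the embryonic poly(A)-binding protein, rose by 1.04.

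Of 52 decay genes 6 rose (11.5%) and 9 fell (17.3%), against 6.93% and 4.05% of all genes, and the falls included 5 of the 11 measured genes of CCR4-NOT, the main complex that shortens poly(A) tails. Cnot6, a catalytic subunit, read 5.80, 5.53 and 5.72 in controls and 4.54 and 4.85 in mutants (-0.99 ± 0.13, adjusted p = 9.47e-04). Cnot6l (-0.78), Cnot9 (-0.63), Cnot2 (-0.56) and Cnot7 (-0.49) fell as well, none of the 11 rose, and their median was -0.49 (-0.66 and -0.28 in the 2 mutant arrays). Cnot6 and Cnot6l were in the stricter set and the other 3 were not. The decapping enzyme Dcp2 fell by 0.88 ± 0.14, while its partner Dcp1a rose by 0.89 ± 0.17. Likewise Pan2, the catalytic subunit of another deadenylase, rose by 0.86 and its partner Pan3 fell by 0.59. Parn (0.78), a further deadenylase, and Xrn2, a nuclear exonuclease (1.37 ± 0.12), rose. The count for the whole list depended on scaling and array: 10 genes rose and 15 fell after quantile normalization and 12 and 13 after cyclic loess, without mutant replicate 1, 11 decay genes rose and 5 fell, without mutant replicate 2, 3 rose, and without control replicate 1, 5 fell.

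Maternal-effect genes, whose product in the egg the embryo cannot do without, gave 13 rises and 5 falls among 38 (34.2% and 13.2%, against 6.93% and 4.05% of all genes). Members of the subcortical maternal complex were among the rises: Nlrp5 (Mater) read 8.13, 7.71 and 7.79 in controls and 9.10 and 9.28 in mutants (1.32 ± 0.16), Ooep rose by 1.35 ± 0.16 and Khdc3 by 0.51. The linker histone of the oocyte, H1f8, rose by 1.51 ± 0.15. Trim28 and Zfp57, which guard imprints after fertilization, rose by 1.48 ± 0.17 and 1.12 ± 0.16. Ctcf, the insulator protein, read 8.26, 7.83 and 7.85 against 6.01 and 7.24, a fall of 1.36 ± 0.28 (adjusted p = 0.013) that was larger in mutant replicate 1, and Nlrp4e fell by 1.05 ± 0.14. Oocyte markers as a list averaged 7.80 to 8.01 in treated controls and 8.23 and 8.63 in the treated mutants, with 6 of 16 called higher and none lower. That shift went with the rises described here, and its part in them was not tested. With mutant replicate 2 or control replicate 2 left out, 8 maternal-effect genes rose, and the falls numbered 2 without mutant replicate 1 and 3 without control replicate 1 or 2.

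Subunits of PRC1 itself were called in both directions. Of 11 measured subunits of canonical PRC1 1 rose and 1 fell (9.09% each, against 6.93% and 4.05% of all genes): Cbx8, a chromodomain protein, by 0.54 ± 0.11, and Bmi1 (Pcgf4) from 10.0, 9.55 and 9.62 to 9.02 and 9.06 (-0.70 ± 0.14, adjusted p = 0.012). The other 9 lay between -0.51 (Scmh1, adjusted p = 0.11) and 0.20. Of 23 subunits of variant PRC1 3 rose and 2 fell (13% and 8.70%). The rises were 3 members of the complex that binds CpG islands: Kdm2b, its DNA-binding subunit, at 6.04, 5.71 and 5.80 against 7.52 and 8.21 (2.01 ± 0.19, adjusted p = 1.77e-04), Bcor at 4.32, 4.44 and 4.41 against 5.37 and 5.74 (1.17 ± 0.14) and Bcorl1 (0.83 ± 0.13). Pcgf1 of the same complex split the mutants, at 5.87 and 7.30 around controls of 6.43 to 6.54, and Skp1, another of its subunits, fell by 0.55 ± 0.13, a call lost without either mutant array or control replicate 1 or 2. Cbx1 fell by 0.56 ± 0.10. Neither canonical subunit was called without mutant replicate 2, and Bmi1 was not called without replicate 1 either. The variant list had 5 rises and 1 fall without mutant replicate 1, and 1 fall without control replicate 1 or 2.

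The sister complex PRC2, which methylates histone H3, changed in 5 of 13 measured genes, 4 upward (30.8%) and 1 downward (7.69%), against 6.93% and 4.05% of all genes. Suz12, a core subunit, read 8.30, 7.90 and 7.96 in controls and 6.94 and 7.0 in mutants (-1.09 ± 0.12, adjusted p = 4.25e-04). The histone-binding subunits Rbbp7 (1.38 ± 0.13) and Rbbp4 (1.18 ± 0.13) rose, as did Jarid2 (0.56 ± 0.09), a recruiter of the complex. Ezhip, an inhibitor of PRC2 known from germ cells, read 5.27, 5.16 and 5.23 against 6.66 and 6.61 (1.41 ± 0.11). The core subunits Ezh2 (0.42 ± 0.20, adjusted p = 0.28) and Eed (0.46 ± 0.21, adjusted p = 0.27) did not pass, and 2 PRC2 genes fell without mutant replicate 2 and 4 after quantile normalization. Of 31 histone demethylase and Trithorax-group genes 6 rose and 5 fell (19.4% and 16.1%): Kdm1a rose by 1.67 ± 0.11 and Kmt2a by 1.49 ± 0.14, while Kdm7a fell by 1.15 ± 0.13, Kmt2c by 0.94 ± 0.14, and Kdm6a and Kdm6b, the H3K27 demethylases, by 0.74 and 0.68.

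Developmental genes that Polycomb is known to silence were called mostly upward, at low signal. Of 38 Hox genes 5 rose (13.2%, against 6.93% of all genes) and none fell, with a list median of 0.04. Hoxd8 read 4.33, 4.54 and 4.53 in controls and 5.48 and 5.43 in mutants (0.99 ± 0.15), and Hoxd9 (0.78 ± 0.10), Hoxc13 (0.71 ± 0.12) and Hoxd1 (0.46 ± 0.13) also rose, Hoxd1 losing its call without any 1 of the 5 arrays. Of 96 other developmental regulators 11 rose (11.5%) and 1 fell (1.04%, against 4.05% of all genes), with a median of 0.02 that turned below 0 after quantile normalization and median centring. Of these 96, 3 rose without mutant replicate 2 and 6 without control replicate 3, and the fall was not called without any 1 of the 5 arrays. Pax6 read 4.43, 4.31 and 4.24 against 5.52 and 5.95 (1.41 ± 0.14, in 1 of 2 probe sets). En2 rose by 0.76 ± 0.09, and Pax2 fell by 0.49. Control levels of Hoxd8 and Pax6 sat at about the array median of 4.45 to 4.53, where a probe set has little room to fall. Of these rises, 4 Hox genes and 3 of the 96 other regulators, Pax6 and En2 among them, belonged to the stricter set. That set held 3.09% of all genes as rises, about the same share as among the 96.

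**Figure D3:**
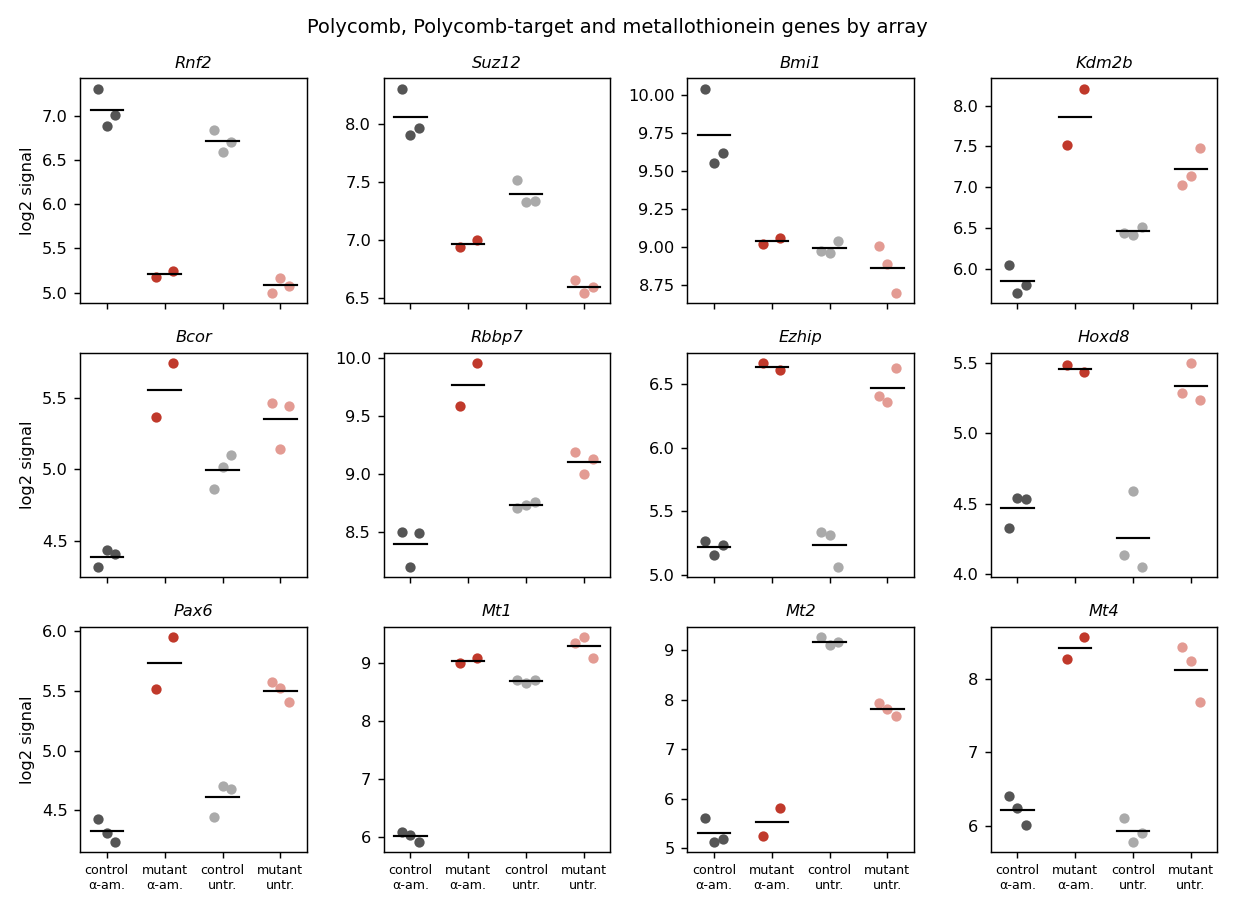
Log2 signal of 12 genes in each of the 11 arrays, grouped as treated control, treated mutant, untreated control and untreated mutant from left to right, with a point per array and a bar at each group mean; the vertical scale differs between panels. Rnf2 and Suz12 are low and Ezhip, Hoxd8, Pax6 and Mt4 high in the mutants with and without α-amanitin, while Mt2 is lower in the mutant without it (-1.36) and differs by 0.22 with it.

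The same genotype difference was measured in the untreated embryos on 6 other arrays, which asks how far the treated result depends on the treatment. The labels give no collection time for the untreated embryos, so an effect of α-amanitin and one of age cannot be told apart in any difference between the treated and the untreated result. There 1893 genes were higher (8.72%) and 3604 lower (16.6%) in the mutant, or 2365 (6.80%) and 4752 (13.7%) in probe sets, which became 3993 and 3629 after quantile normalization. Across the 21699 genes the treated and the untreated difference gave Pearson's r = 0.080 and Spearman's rho = 0.078, as a description across genes, which are not independent replicates. Of the 1504 genes higher with α-amanitin, 562 (37.4%) were also higher without it and 407 (27.1%) were lower. Of the 879 genes lower with α-amanitin, 248 (28.2%) were also lower without it and 65 (7.39%) were higher. In the stricter set 299 of 671 rises (44.6%) and 122 of 331 falls (36.9%) had the same direction in untreated embryos, and 159 rises (23.7%) and 18 falls (5.44%) were called in the opposite one.

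Among the 15 largest rises, 11 were called higher in untreated embryos as well, and the interaction passed in 10 of the 15, of which 6 were among these 11. Plac1 differed by 2.67 ± 0.14 with and 2.16 ± 0.13 without α-amanitin, Pcbd2 by 2.90 and 2.03, Tubb3 by 2.47 and 2.01, and Ddah1 by 2.47 and 1.98. The difference between the treatments did not pass for any of these 4 genes (interaction adjusted p from 0.068 to 0.29). Snrpd3, Snrpf, Magoh and Dppa3 behaved otherwise: without α-amanitin they differed by -0.06, -0.24, -0.33 and -0.29, none called, and their interactions were 3.12, 2.59, 2.99 and 2.75 (adjusted p at most 6.19e-05). For Snrpd3, both untreated genotypes lay between 10.0 and 10.4 and the treated mutant arrays at 10.8 and 10.9, while the treated control arrays lay between 7.64 and 8.0.

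Of the 15 largest falls 10 were called lower without α-amanitin too. Epc2 fell by 1.46 ± 0.15 with and by 1.10 ± 0.13 without it, Scoc by 1.57 and 1.58, and Dcun1d1 by 1.46 and 0.81. Cdo1 and Wasf2 differed by -0.10 and -0.16 in untreated embryos, neither called, and their interactions were -1.88 ± 0.24 and -1.20 ± 0.17. Polycomb genes were mixed in this respect: Suz12 (-0.80), Ezhip (1.22), Hoxd8 (1.08) and Pax6 (0.89) kept their direction without α-amanitin, whereas Rbbp4 was lower in the untreated mutant (-0.44 ± 0.12).

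The interaction, treated minus untreated genotype difference, was called in 3858 genes (17.8%), 2940 upward (13.5%) and 918 downward (4.23%). In probe sets 3778 (10.9%) were called upward and 1205 (3.47%) downward, against 2848 and 3323 after quantile normalization. In 472 genes the genotype difference was called in opposite directions with and without α-amanitin, and the genes named next were taken from these. Rnf7, the RING subunit of a cullin ubiquitin ligase, gave the largest interaction among those: treated controls read 5.95, 6.11 and 6.02 and treated mutants 6.91 and 7.24, but untreated controls 10.2, 9.80 and 10.0 and untreated mutants 7.97, 7.19 and 7.58. In Tomm7 and Aurka, too, untreated controls were the highest group and treated controls the lowest, an order that the choice of these genes partly fixes. Most lists described above were called lower more often than higher in untreated mutants, where 8.72% of all genes were higher and 16.6% lower. Of 73 respiratory-chain genes 13 were higher and 38 lower there, of 49 proteasome genes 3 and 28, and of 51 spindle genes 5 and 32. Of 68 ribosomal protein genes 1 was higher and 56 lower, and of 69 ribosome assembly factors none was higher and 67 lower. Among single genes, Uqcrh, Ndufa1 and Pttg1 were also higher in untreated mutants (1.51, 1.36 and 1.01), while Psma6 (-1.99), Aurka (-1.04) and Kif20a (-1.08) were lower there.

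**Figure D4:**
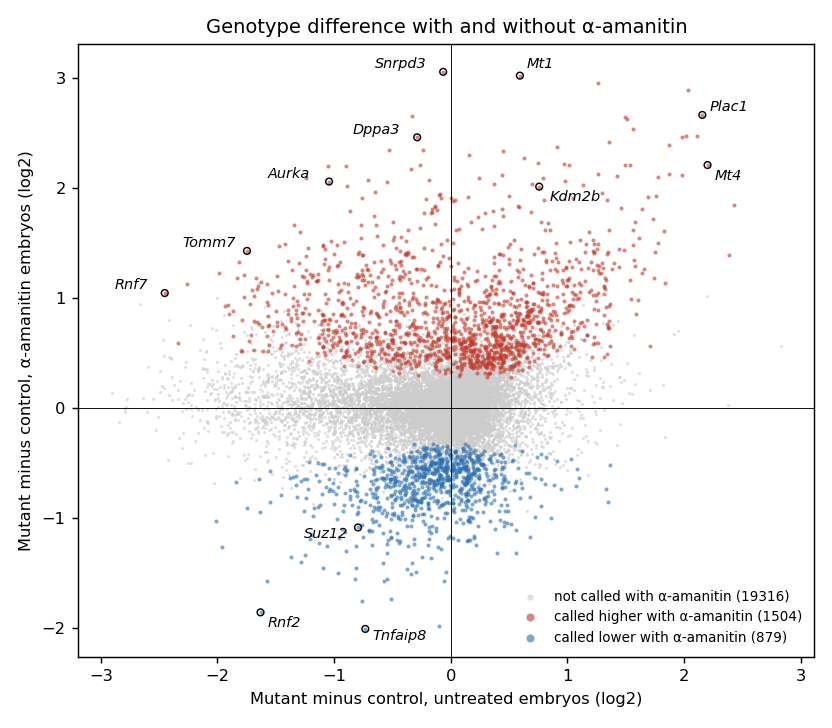
Mutant minus control log2 difference in untreated embryos (horizontal axis) against that in α-amanitin-treated embryos (vertical axis), 1 point per gene over 21699 genes, coloured by the call with α-amanitin; 12 genes are ringed and named. Plac1, Mt4 and Kdm2b lie to the upper right, Rnf2, Tnfaip8 and Suz12 to the lower left, and Rnf7, Tomm7 and Aurka to the upper left, where the sign differs between the treatments.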

How the data were processed

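RNA of 11 pools of 40 embryos was read on Affymetrix whole-transcript arrays after whole-transcriptome amplification, per the labels' protocols. The deposited log2 values of 34760 probe sets were used as given. The authors made them with R 2.10.0 and the affy package, per the submitters' processing notes, and the sources used here do not give the background correction or normalization. No spike-in scales the arrays, so an equal change of all RNA cannot be seen, and arrays carry no read depth: their number limits the precision. The labels call replicates biological and name no batch.

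The deposited annotation gave 23544 probe sets 1 gene, 1068 several and 10148 none or no entry. Symbols of 4336 probe sets were updated through RefSeq's gene table, 17621 were kept and 1587 were not in that table. The probe set brightest over the 11 arrays stood for each of 21699 genes. Whether a probe set reads its gene or a copy elsewhere in the genome was not tested. limma 3.58.1 (R 4.3.3) fitted 1 mean per group over all 11 arrays with lmFit and eBayes, with 7 residual and 3.59 prior degrees of freedom and no filter on dim probe sets. P-values are 2-sided and adjusted by Benjamini-Hochberg over all 34760 probe sets, and a gene was called at an adjusted p below 0.05. Untreated arrays entered for the spread and for the interaction. The fit was tested on simulated data.

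Alternatives were quantile normalization, cyclic loess, median centring, array weights, a trended prior, the brighter 50% of probe sets, the dimmest probe set per gene, only the groups compared, the replicate number as a block, and each treated array left out. The stricter set was called in the same direction in the main fit, the 3 scalings and the fits without either mutant array.

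Named were the 15 largest rises and falls whose groups do not overlap, ranked by the mutant array nearer to the controls and passing over clone and predicted names, then up to 5 called members with the largest difference in each of 51 gene lists, all PRC1 subunits and metallothioneins, and the 10 largest interactions with opposite calls in the 2 treatments. Other list members are named with their values. Members, lists and rules were chosen with earlier results of these data known. Promoter windows are RefSeq's (GRCm38.p6), and array coordinates are not given because the build is not named. Counts of lists are described beside those over all genes, with no set test. A few genes within the lists are counted there but not reported by name.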

Additional observations from a re-analysis of the deposited data

Results flagged for a closer look

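The genotype difference was not the same with and without α-amanitin. The interaction (limma, adjusted p below 0.05) was called upward in 3778 and downward in 1205 of 34760 probe sets (10.9% and 3.47%), where upward means that the mutant minus control difference was higher in treated embryos. The arrays of treated mutants are 2 in number, and treated and untreated embryos were separate pools. The labels give no collection time for the untreated embryos, so treatment and age cannot be told apart in these values.

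Among genes called in opposite directions in the 2 treatments, 10 gave the largest interactions. Rnf7, a cullin-ligase RING protein, differed by 1.05 with and -2.45 without α-amanitin, an interaction of 3.50 ± 0.27. Bola2, an iron-sulfur cluster chaperone, followed with 3.38 ± 0.31 (1.13 and -2.26), and Slc16a6, a monocarboxylate-type transporter, with 3.25 ± 0.24 (2.20 and -1.05). The proteasome alpha subunit Psma6 gave 3.22 ± 0.38, the mitochondrial pore subunit Tomm7 3.18 ± 0.28, the ribosomal protein Rpl39l 3.14 ± 0.28 and the mitotic kinase Aurka 3.10 ± 0.29. Nifk, a nucleolar partner of Ki-67, gave 3.02 ± 0.33, the ribosome-bound scaffold Rack1 3.01 ± 0.28 and Mat2a, which makes S-adenosylmethionine, 2.98 ± 0.28. In all 10 the treated control arrays were the lowest group and the untreated control arrays the highest, and both mutant groups lay between them. Opposite calls with an upward interaction already place treated controls below treated mutants and untreated controls above untreated mutants. That part of the order is no separate result. Of these genes Rnf7, Bola2, Psma6 and Nifk were outside the stricter set. The treated call of Rnf7 was lost without mutant replicate 2, and that of Psma6 without mutant replicate 2 or control replicate 2 or 3.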

How the results depend on the processing

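Of 241 called genes among the 271 that the naming rules took, 239 kept their direction in every alternative that was run. The alternatives reuse the same arrays, so this is no separate check of the direction. Of the 241, 80 were no longer called with only the groups compared, 33 with array weights, 20 with the replicate block, 12 with a trended prior, 8, 5 and 4 after median centring, quantile normalization and cyclic loess, 48 and 29 without mutant replicate 2 and 1, and 25 to 34 without a control array. With the dimmest probe set of the gene, 23 genes with more than 1 probe set kept their call and 15 lost it. Cdc5l and Cks2 turned below 0 there, at -0.58 and -0.027, neither called. In probe sets, 1920 rose and 1224 fell (61.1% up). With only the groups compared, which leaves 5 arrays for the spread, 836 rose and 395 fell. Array weights, which were 0.60 for both treated mutant arrays and 0.89 to 1.33 for the others, gave 1346 rises and 704 falls. Quantile normalization gave 2227 rises and 2322 falls (49.0% up), 3323 downward and 2848 upward interactions against 1205 and 3778, and 3993 rises and 3629 falls without α-amanitin against 2365 and 4752, and cyclic loess gave 2191 downward interactions. The cause was not tested.

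Leaving out each treated array gave 1021 to 2437 rises, 596 to 1388 falls, 2961 to 4126 upward and 814 to 1590 downward interactions, and a Rnf2 difference of -1.95 to -1.74. In the absence of mutant replicate 2, 1021 rose and 1388 fell (42.4% up); without mutant replicate 1, 2437 rose and 596 fell (80.3% up); without control replicate 1, 719 fell. The lone mutant array is then assumed to vary like the other groups. The main fit, too, assumed a spread shared by all groups. With the replicate number as a block 1598 rose and 1129 fell. Among the 3 groups of 3 arrays residuals of the same number correlated at 0.029 to 0.154 and of different numbers at -0.119 to 0.037, each array correlating best with its own number, except treated control 2 against the untreated mutants. With the treated mutants, whose 2 residuals mirror each other, the same number gave -0.223 to -0.019. The labels state no shared source, so the numbers were not taken to pair the samples.

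With 2 mutant arrays, small differences are not detectable. Probe sets near the array median have little room to fall, and the arrays mark none as undetected.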

Other observations

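Further gene groups in α-amanitin-treated embryos are set beside the shares over all genes, 6.93% higher and 4.05% lower. Of 20 retinoid genes 4 rose and 1 fell (20% and 5%): beside Crabp2, the related carrier Crabp1 read 4.80, 4.80 and 4.71 in controls and 5.88 and 6.19 in mutants (1.26 ± 0.16, limma's adjusted p = 7.50e-04), and Aldh1a2, which makes retinoic acid, rose by 1.16 ± 0.14. Rarb, a retinoic acid receptor, rose by 0.32 ± 0.08, a call lost without any 1 of the 5 arrays, and Rdh10, which makes retinal, fell by 0.68 ± 0.18. Crabp1 and Aldh1a2 were higher in untreated mutants as well, by 1.38 and 1.54. Of 37 imprinted genes 6 rose and 1 fell (16.2% and 2.70%), led by Igf2 at 4.97, 5.01 and 4.79 against 6.37 and 6.32 (1.42 ± 0.15) and Phlda2 (1.12 ± 0.15). After quantile normalization 6 imprinted genes rose and 5 fell, and after cyclic loess 7 rose and 3 fell. Of 44 germline and meiosis genes 7 rose (15.9%) and none fell, and Sycp3, of the synaptonemal complex, read 5.74, 5.62 and 5.50 against 7.25 and 7.76 (1.89 ± 0.21). Germline rises numbered 3 without mutant replicate 2 or control replicate 1, and the retinoid and imprinted falls were not called without mutant replicate 1 or control replicate 1 or 2.

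Among 70 signalling genes 1 rose and 4 fell (1.43% and 5.71%). The rise was not called without mutant replicate 2 or any 1 control array, and the falls numbered 2 without mutant replicate 1 and 9 after quantile normalization. Tgfb2, a TGF-beta ligand, read 7.88, 8.0 and 7.91 in controls and 6.37 and 6.77 in mutants (-1.36 ± 0.16), and Bmp6 fell by 0.92 ± 0.13, with untreated differences of -0.25 and 0.18 that were not called. Nuclear transport was divided: of 51 nucleoporin and carrier genes 10 rose and 6 fell (19.6% and 11.8%), with Nup37 (1.35 ± 0.19) and Nup93 (1.33 ± 0.18) among the rises and 4 of 7 exportin genes, Xpo1, Xpo4, Xpo6 and Xpo7, among the falls (-0.69 to -0.37), none of these 4 in the stricter set. The transport list had 4 rises without mutant replicate 2, and 2 falls without mutant replicate 1 or control replicate 1. Glycolysis gave 6 rises (27.3%) and no fall among 22 genes, with Gapdh at 1.31 ± 0.16 and both lactate dehydrogenases Ldha (1.13 ± 0.12) and Ldhb (1.09 ± 0.11) higher; it had 3 rises without mutant replicate 2.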
